A study of Mus musculus with 4 samples.

Results

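Retinoic acid (RA), the signal that was added to the cultures in this study, is also made and destroyed by the cells themselves. Stra6 encodes a membrane receptor that takes up retinol, Rdh10 the enzyme that oxidizes retinol to retinal, and Dhrs3 an enzyme that reduces retinal back to retinol. The retinaldehyde dehydrogenases Aldh1a1, Aldh1a2 and Aldh1a3 then turn retinal into RA, and the cytochrome P450 enzymes Cyp26a1, Cyp26b1 and Cyp26c1 oxidize RA to products that are cleared. In embryos, cells that make RA often lie next to cells that break it down, so that the signal is graded across the tissue. These 9 genes were taken by their symbols from the deposited table of 24771 features, and each symbol had 1 row.

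RNA-seq values of PSC-derived SG placodes were compared with those of submandibular glands (SMGs) from E12.5 mouse embryos, with 2 samples per group. The placodes were aggregates of a single mouse embryonic stem cell line, harvested on day 10 of culture. Matrigel (2%) was in the medium from day 1, and BMP4 (2 ng/ml) was given on day 3. RA (1 μM) and bFGF (25 ng/ml) followed on day 4 and were replaced on day 6 by medium with FGF10 (200 ng/ml), so RNA was taken after the RA step had ended. The sources name no strain for the embryos, do not describe how the SMGs were dissected, and do not say whether the 2 samples of a group came from separate cultures or litters, so the spread between them may be technical. Every placode sample received RA, and the effect of RA cannot be told apart from that of the other factors or of the tissue.

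Levels are given as FPKM (fragments corrected for transcript length and sequencing depth), which allows levels to be compared between genes as far as the lengths are right. The lengths used are not given in the sources. Annotated coding transcripts span 398 to 3077 bases for Stra6 and 829 to 3443 for Aldh1a3. Those of Cyp26b1 span 1340 to 4495 bases and those of Dhrs3 686 to 2337, so ratios and orders between genes are approximate. Differences are given as log2 fold changes of FPKM + 1, placodes minus SMGs, and were tested with limma over the 13193 features with a mean FPKM of at least 1 over the 4 samples. Calls were made at an adjusted p (Benjamini-Hochberg) below 0.05. The FPKM values summed to between 361963 and 384773 per sample. Low values of genes with a single transcript were searched for whole multiples of a common step. At the best step of those scanned, 34.7 to 43.6% of 289 to 302 values per sample lay within 0.05 of a whole multiple. For evenly spread values 10.0% would do so at 1 fixed step, and the share at the best of many was not computed. These steps would correspond to 32100000 to 38600000 counted units per sample. Whether a unit is a fragment or 1 mate of a pair could not be settled, so read counts are not given. The relative depth was highest in SMG sample 2. The steps themselves are used only as a rough guide for Cyp26c1.

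Markers of other cells moved with the groups, and many of them passed the minimum only through the group where they were high. These were 5 of 8 epithelial, 1 of 6 mesenchymal, 2 of 4 neural progenitor, 3 of 4 endothelial and 1 of 2 leukocyte markers. All tested erythroid, skeletal muscle and motor neuron markers were of this kind, and no neuronal marker was. The calls of such markers add nothing to the counts below. Without them, 2 of 3 epithelial and 5 of 5 mesenchymal markers were lower, and 2 of 2 neural progenitor markers were higher. All 4 neural progenitor markers and all 4 neuronal markers were higher in the placodes, where Sox2 had an FPKM of 131 and 130.0 against 6.53 and 5.33 in the SMGs. The neuronal markers summed to 730 and 756 in the placodes and to 74.7 and 67.2 in the SMGs, with Tubb3 the most abundant. Of 8 epithelial markers, 7 were lower in the placodes, where Krt5, Krt14 and Krt15 were listed at 0, and their sum was 37.8 and 39.9 against 605 and 582. The exception was Krt8, at 34.4 and 35.6 against 36.1 and 28.3, which was not called (adjusted p = 0.322) and made up most of the placode sum. Pitx1, the most abundant of them, had an FPKM of 0.539 and 0.429 against 245 and 253. The 6 mesenchymal markers, led by Col3a1, summed to 156 and 153 in the placodes and to 1358 and 1332.5 in the SMGs, and all were lower in the placodes. Endothelial markers were lower as well (4 of 4, sums of 9.72 and 9.11 against 88.2 and 94.2). Cdh5, the most abundant of them, made up most of the placode sum at 8.07 and 7.60, and the others were below 1 there. The tested erythroid markers (3 of 3, led by Hbb-y, which was listed at 0 in the placodes) were lower too. Skeletal muscle markers were also lower (2 of 2 tested), with Myog listed at 0 in the placodes and at 28.3 and 21.2 in the SMGs, and so were the 2 tested leukocyte markers, led by Csf1r. Of 5 motor neuron markers, Slc18a3 was the most abundant, at 4.07 and 4.24 against 0.824 and 0.538, and both tested members were higher in the placodes. The pluripotency markers were below 1 in every sample, with Pou5f1 at 0.403 and 0.340 in the placodes. These counts are to be read against all tested features, of which 35.7% were called higher in the placodes and 40.4% lower. No matched share was computed for the counts without markers that passed through a single group. The part of the cell types in the results below was not tested. In bulk RNA fewer cells of a type and less RNA per cell cannot be told apart.

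Of the 9 genes, 8 reached the mean FPKM of 1 and were tested, with 2 called higher in the placodes and 6 called lower. Over all tested features 76.2% were called, 35.7% higher and 40.4% lower, so a call by itself was common between these tissues. Differences of at least 2-fold were called for 6 of the 8 genes, against 29.4% of all tested features. The median log2 fold change of the 8 genes was -1.33, against -0.05 over all tested features. For each of the 8 the placode and SMG values were fully separated, as they were for 88.4% of all tested features. Aldh1a1 and Aldh1a3 passed the minimum only through their values in the SMGs, so that they had to differ and their calls add nothing to these counts. Without them, 2 genes were called higher and 4 lower, 4 of 6 by at least 2-fold, and the median was -0.94. The shares above cover all tested features, also those that passed through 1 group only, so they are not matched to these reduced counts.

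**Figure D1:**
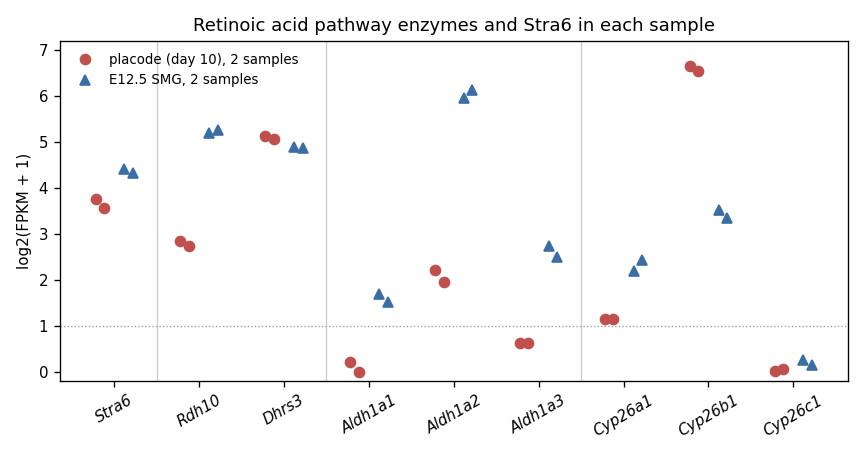
Level of each gene in each sample as log2(FPKM + 1), with circles for the 2 placode samples and triangles for the 2 SMG samples, and a dotted line at an FPKM of 1. Cyp26b1 stands far higher in the placodes and Aldh1a2 and Rdh10 far higher in the SMGs, while the samples of one group lie close together.

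In the SMGs the order of levels from the highest was Aldh1a2, Rdh10, Dhrs3, Stra6, Cyp26b1, Aldh1a3, Cyp26a1, Aldh1a1 and Cyp26c1. By the difference in mean FPKM, though not by the ratio, Aldh1a3 and Cyp26a1 were the closest neighbours, at 4.66 to 5.65 and 3.59 to 4.39. In the placodes the order was Cyp26b1, Dhrs3, Stra6, Rdh10, Aldh1a2, Cyp26a1, Aldh1a3, Aldh1a1 and Cyp26c1, and the last pair overlapped. Cyp26b1 thus had the highest level of the 9 genes in the placodes and Aldh1a2 in the SMGs.

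The retinol receptor gene Stra6 (ENSMUSG00000032327), on chromosome 9 of GRCm38 from 58063788 to 58153996 on the plus strand, had an FPKM of 12.4 and 10.8 in the placodes and of 20.2 and 18.9 in the SMGs. Both placode samples were below both SMG samples, and the log2 fold change was -0.71 (standard error 0.083, adjusted p = 3.59e-04).

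Rdh10 (ENSMUSG00000025921) lies on chromosome 1 from 16105774 to 16133734 on the plus strand. Its FPKM was 6.14 and 5.69 in the placodes and 35.7 and 37.3 in the SMGs. The level was 6.17-fold higher in the SMGs as a ratio of mean FPKM, and the log2 fold change was -2.44 (standard error 0.067, adjusted p = 7.70e-07). In the SMGs only 14.7 to 15.6% of the features at or above an FPKM of 1 had a higher level, against 67.6 to 69.4% in the placodes.

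Dhrs3 (ENSMUSG00000066026), on chromosome 4 from 144892827 to 144928209 on the plus strand, had similar levels in both tissues. Its FPKM was 33.9 and 32.2 in the placodes and 28.5 and 28.3 in the SMGs. Both placode samples were above both SMG samples, a log2 difference of 0.21 with a standard error of 0.053 (adjusted p = 0.0108). Without placode replicate 1 the difference was 0.17 and was not called (adjusted p = 0.0639), with 1 placode sample left, and without each of the other samples it was 0.21 to 0.25 and was called. The ratio of the transcripts for retinal formation and for its reversal differed between the tissues, as Rdh10 was at 0.181 and 0.177 of the FPKM of Dhrs3 in the placodes and at 1.25 and 1.32 of it in the SMGs.

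Among the retinaldehyde dehydrogenases, Aldh1a2 (ENSMUSG00000013584) was the most abundant in both groups. It lies on chromosome 9 from 71215789 to 71296243 on the plus strand. Its FPKM was 3.61 and 2.88 in the placodes and 60.8 and 68.5 in the SMGs, 19.9-fold higher in the SMGs as a ratio of mean FPKM, a ratio that only Aldh1a1, at 24.3-fold from values near 0 in the placodes, exceeded among the 9 genes. The log2 fold change was -3.95 (standard error 0.105, adjusted p = 6.71e-07), the lowest of the 8 tested genes, and 66 of all tested features had a lower one. The 250 bases before its RefSeq start (GRCm38.p6, chr9:71215539-71215788, plus strand) are shown because this gene had the lowest log2 fold change on the scale of FPKM + 1, and they held no match to the paired motif described with Cyp26a1.
Aldh1a2: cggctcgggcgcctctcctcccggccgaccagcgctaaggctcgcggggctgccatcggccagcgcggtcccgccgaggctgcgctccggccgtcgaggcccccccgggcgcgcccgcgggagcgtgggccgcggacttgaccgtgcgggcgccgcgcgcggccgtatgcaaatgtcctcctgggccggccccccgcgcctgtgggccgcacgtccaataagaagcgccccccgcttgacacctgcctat

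Aldh1a3 (ENSMUSG00000015134) lies on chromosome 7 from 66390890 to 66427517 on the minus strand. Its FPKM was 0.546 and 0.554 in the placodes and 5.65 and 4.66 in the SMGs, and the log2 fold change was -1.98 (standard error 0.121, adjusted p = 1.85e-05). With a pseudocount of 0.1 in place of 1 the log2 fold change was -3.01.

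Aldh1a1 (ENSMUSG00000053279), on chromosome 19 from 20492715 to 20643465 on the plus strand, was the least abundant of the 3 dehydrogenases. It was at 0.169 in placode sample 1 and listed at 0 in placode sample 2, against 2.23 and 1.88 in the SMGs. The log2 fold change was -1.50 (standard error 0.138, adjusted p = 1.16e-04), and it was -3.71 with a pseudocount of 0.1. The close paralog Aldh1a7 had an FPKM of 0.387 and 0.131 in the placodes and of 17.6 and 15.6 in the SMGs. Of the distinct 50-base words in the annotated Aldh1a1 transcripts, 3.06% also occur in Aldh1a7, and of those in Aldh1a7, 7.49% also occur in Aldh1a1. Aldh1a7 had the higher level in the SMGs, and the part of shared reads in the Aldh1a1 values was not tested.

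Of the RA-degrading enzymes, Cyp26b1 (ENSMUSG00000063415), on chromosome 6 from 84571414 to 84593908 on the minus strand, was the single gene of the 9 that was at least 2-fold higher in the placodes. Its FPKM was 99.6 and 92.7 in the placodes and 10.4 and 9.13 in the SMGs, 9.82-fold higher in the placodes as a ratio of mean FPKM. The log2 fold change was 3.17 (standard error 0.076, adjusted p = 4.99e-07), and 292 of the tested features had a higher one. Only 4.07 to 4.45% of the features at or above an FPKM of 1 exceeded its level in the placodes.

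Cyp26a1 (ENSMUSG00000024987), on chromosome 19 from 37697798 to 37701536 on the plus strand, went the other way. This gene is a known target of RA receptors. It is not used here as a readout of the added RA, because RNA was taken on day 10, after the RA step had ended on day 6. Its FPKM was 1.21 in both placode samples and 3.59 and 4.39 in the SMGs. The log2 fold change was -1.17 (standard error 0.120, adjusted p = 1.88e-04). Cyp26a1 and Cyp26b1 thus moved in opposite directions, although they encode enzymes of the same family.

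Cyp26c1 (ENSMUSG00000062432), on chromosome 19 from 37685581 to 37693398 on the plus strand, was not tested because its mean FPKM was below 1. It was at 0.0189 and 0.0466 in the placodes and at 0.198 and 0.115 in the SMGs. With its 1 transcript of 1747 bases these values stand for 1.1 and 2.7 steps in the placodes. In the SMGs they stand for 11.1 and 7.7 steps. The values 2.7 and 7.7 are not near whole multiples, so the steps show only roughly that the placode level rested on few reads.

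The upstream sequences of Cyp26a1 and Cyp26b1 are printed because the pair moved in opposite directions. RA receptors bind direct repeats of a short half-site. The half-sites searched were AGGTCA and its forms with AGTTCA or with GGGTCA or with GGTTCA, in the same orientation with a spacer of 5 bases, on both strands of the 250 bases before each RefSeq start. The 7 members with an entry (all but Rdh10 and Aldh1a3) had 13 such windows, and the repeat was found in the window of Cyp26a1 alone. Of 32851 windows of all genes 29 held it, or 0.0883%. Spacers of 1 and 2 bases were searched too and matched 0.164% and 0.174% of all windows, but none of the members. In Cyp26a1 the repeat with a spacer of 5 bases lay on the minus strand from 32 to 16 bases before the RefSeq start. It is in capitals, read on the plus strand. Bases inside the GENCODE gene were left out, which gives GRCm38.p6 chr19:37697558-37697797 on the plus strand for Cyp26a1 and chr6:84593909-84594060 on the minus strand for Cyp26b1. The other gene of the retinoid lists with a match at a spacer of 5 bases was the receptor gene Rarb. Only its repeat is printed, read along the gene, from 53 to 37 bases before its start in the window chr14:16575477-16575726 (minus strand). A match describes the letters of the window and is not a measured binding site.
Cyp26a1: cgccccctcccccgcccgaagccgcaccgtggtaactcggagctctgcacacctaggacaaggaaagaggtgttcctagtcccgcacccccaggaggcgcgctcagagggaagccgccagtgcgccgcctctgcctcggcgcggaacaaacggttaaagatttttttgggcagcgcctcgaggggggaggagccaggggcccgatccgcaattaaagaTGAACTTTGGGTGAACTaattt
Cyp26b1: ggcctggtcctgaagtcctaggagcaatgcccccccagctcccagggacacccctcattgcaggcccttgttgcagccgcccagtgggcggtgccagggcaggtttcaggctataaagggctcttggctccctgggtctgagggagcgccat
Rarb: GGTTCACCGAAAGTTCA

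**Figure D2:**
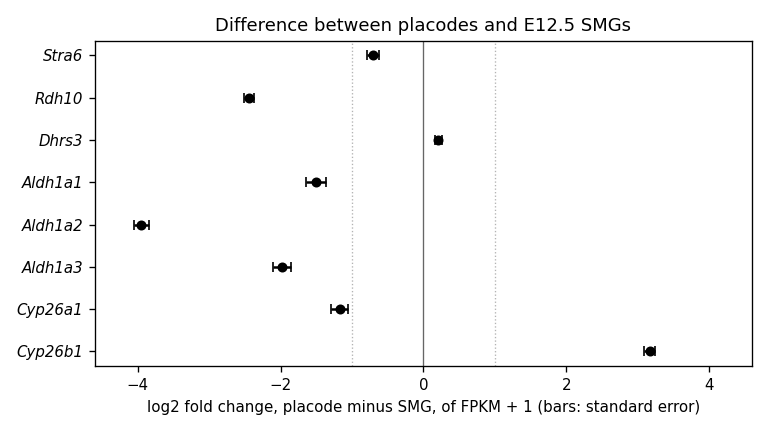
Log2 fold change of FPKM + 1, placodes minus SMGs, of the 8 tested genes, with points for the estimates, bars for the standard errors and dotted lines at a change of 2-fold. Cyp26b1 is at 3.17, Dhrs3 at 0.21, and the other 6 genes lie between -3.95 and -0.71.

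Summed over each step, the levels of synthesis and breakdown genes had opposite orders in the tissues. The 3 Aldh1a genes summed to an FPKM of 4.33 and 3.43 in the placodes and of 68.6 and 75.0 in the SMGs. The 3 Cyp26 genes summed to 100.8 and 93.9 in the placodes and to 14.2 and 13.6 in the SMGs. Within a sample, the Cyp26 sum was 23.3 and 27.4 times the Aldh1a sum in the placodes, whereas in the SMGs the Aldh1a sum was 4.83 and 5.50 times the Cyp26 sum. These sums are descriptions of transcript levels and were not tested, and they do not measure enzyme activity.
Each sum was mostly 1 gene. Of the Aldh1a sum, Aldh1a2 made up 83.7% ± 0.273 (SD, n = 2) in placode samples and 89.9% ± 1.95 in SMG samples. Of the Cyp26 sum, Cyp26b1 made up 98.7% ± 0.0812 in placode samples and 70.2% ± 4.53 in SMG samples, where Cyp26a1 gave 28.7% ± 4.92.

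**Figure D3:**
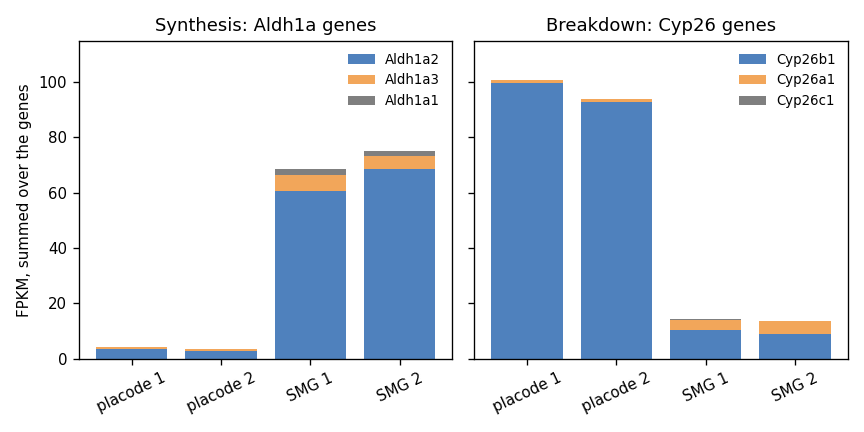
FPKM of the Aldh1a genes (left) and of the Cyp26 genes (right), stacked in each of the 4 samples on a common linear axis that starts at 0. The Aldh1a bars reach 4.33 and 3.43 in the placodes and 68.6 and 75.0 in the SMGs, and the Cyp26 bars 100.8 and 93.9 in the placodes and 14.2 and 13.6 in the SMGs.

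Other genes of the pathway were taken from lists of enzymes, carriers, receptors and RA targets. The counts of each list below are to be read against all tested features, of which 35.7% were called higher and 40.4% lower. No matched share was computed for the counts that leave out genes passing through a single group. The list of other enzymes of retinoid metabolism held 23 genes, taken by symbol, without a measure of their activity on retinoids. Of these, 10 were tested, with 2 higher, 5 lower and 3 not called in the placodes. The lowest were Aldh1a7 (log2 fold change -3.81, adjusted p = 1.88e-06) and Dhrs4, a retinal reductase, whose FPKM was 3.41 and 5.25 in the placodes and 40.5 and 45.2 in the SMGs (log2 fold change -3.06, adjusted p = 1.05e-05). Rdh11, another retinal reductase, was higher by 0.54 (adjusted p = 3.11e-04), and Cyp1b1, at 4.38 and 4.74 against 2.79 and 4.09, was not called (adjusted p = 0.0886). The median over the tested genes of this list was -0.32. Aldh1a7 passed the minimum only through the SMGs and so had to differ, and without it 4 of 9 were lower and the median was -0.23.

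Of 11 genes for retinoid transport and binding, 5 were tested, and 4 of them were higher and 1 was lower in the placodes. Crabp1, which binds RA in the cytoplasm, had an FPKM of 188 and 181 in the placodes and of 14.5 and 12.6 in the SMGs (log2 fold change 3.67, adjusted p = 2.67e-07). Crabp2, which delivers RA to its nuclear receptors, had the highest level of the list, at 221 and 209.8 against 114 and 125. Rbp4, the carrier of retinol in blood, was lower in the placodes, at 1.76 and 1.48 against 8.49 and 8.47 (log2 fold change -1.86, adjusted p = 1.11e-05). The median of this list was 0.86.

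All 6 receptor genes were tested, with 2 higher and 4 lower and a median of -0.40. Rxrg passed the minimum only through the SMGs, and without it 3 of 5 were lower and the median was -0.35. Rarg had an FPKM of 6.06 and 4.48 in the placodes and of 46.8 and 46.7 in the SMGs (log2 fold change -2.94, adjusted p = 3.42e-06), the only change of at least 2-fold among them. Rara was higher by 0.83 (adjusted p = 2.51e-05) and Rxra lower, at -0.58 (adjusted p = 4.29e-04). Rarb, itself a target of RA, was at 33.4 and 31.1 against 26.1 and 27.6 (log2 fold change 0.26, adjusted p = 8.79e-03), a call that was lost without placode replicate 1 (0.21, adjusted p = 0.0692) or SMG replicate 1 (0.22, adjusted p = 0.0548), each with 1 sample left in that group.

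Of 13 RA target genes with 14 features, 10 features were tested, of which 7 were higher, 1 was lower and 2 were not called in the placodes, with a median of 0.78. Of these, 2 features passed the minimum only through the placodes, and without them 5 of 8 were higher and the median was 0.49. One of the 2 features of Hoxd4, a patterning gene of the hindbrain and trunk, had the highest log2 fold change of the list, with an FPKM of 25.2 and 28.3 in the placodes and listed at 0 in the SMGs. Zfp703 was lower by a log2 fold change of -0.77 (adjusted p = 3.05e-05), and Nrip1, at 12.8 and 13.6 against 14.0 and 15.6, was not called (adjusted p = 0.122). Some genes, such as Crabp2 and Rarb, are counted in this list and in those above. The targets did not all move in one direction, as Zfp703 was lower, and so was Cyp26a1, described above as a target too. Whether other members respond to RA was not tested.

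**Figure D4:**
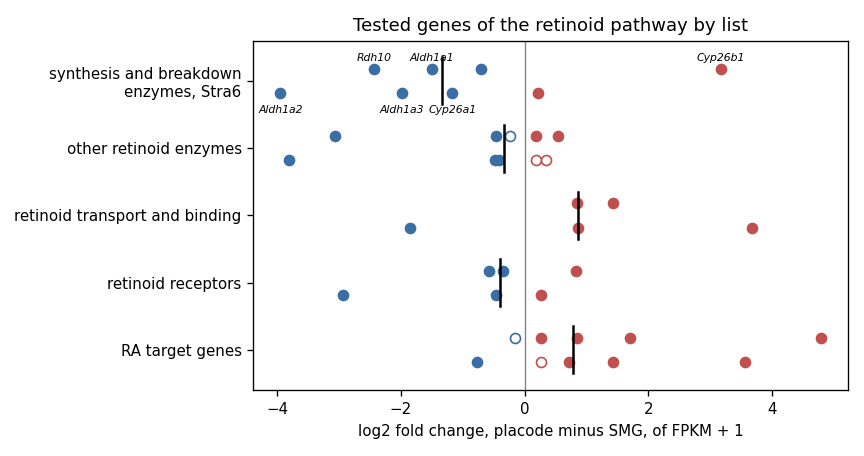
Log2 fold change of FPKM + 1, placodes minus SMGs, of every tested gene in the 5 lists, with filled points for adjusted p below 0.05, open points for the others and a black bar at the median of each list. The medians are -1.33, -0.32, 0.86, -0.40 and 0.78 from top to bottom.

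Genes with patterns like those of the extremes were found by the Euclidean distance of log2(FPKM + 1) over the 4 samples. The nearest to Cyp26b1 were Nell2 (distance 0.172), Dpysl4 (0.225) and Rab3a (0.359), with FPKM values of 80.2 to 108 in the placodes and of 9.19 to 11.0 in the SMGs. The nearest to Aldh1a2 were the gene model Gm21887 (0.341), Eva1b (0.415) and Vcam1 (0.461), which encodes an adhesion molecule, with values of 2.71 to 4.40 in the placodes and of 54.5 to 80.0 in the SMGs. With 2 groups, such nearness mostly restates a similar level in each tissue.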

How the data were processed

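The authors mapped paired-end reads with HISAT2 to a mouse genome and deposited FPKM values, 1 column for each of 4 samples. The submitters' notes list GRCm38 and GRCh38 without saying how each was used. The HISAT2 version, annotation and FPKM program are not given in the sources used here. Of 22036 Ensembl identifiers, 22022 matched GENCODE M21 (GRCm38), which gave coordinates, and no member shared exon bases with another gene.

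A pseudocount of 1 was added, and limma 3.58.1 in R 4.3.3 (lmFit, eBayes with trend, group only) was run on log2 values of features with mean FPKM of at least 1, as a two-sided test. P values were adjusted by Benjamini-Hochberg. An exact permutation test of 2 against 2 could not go below p = 0.333. The procedure was tested on simulated data. Upstream windows came from RefSeq (GRCm38.p6), and figures were drawn with matplotlib 3.10.9.

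Members and lists were chosen with earlier results of these data known. Named genes were all members, the 2 highest and 2 lowest of each pathway list by log2 fold change, Aldh1a7, the top marker of each cell type by mean FPKM and the 3 nearest patterns. Some genes under this rule are not reported here. Krt5, Krt8, Krt14, Krt15, Rxrg and Dgat1 were named after their values were seen. Alternatives were another pseudocount, scaling, filter or variance model, the replicate number as a block, and each replicate left out.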

Additional observations from a re-analysis of the deposited data

How the results depend on the processing

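Directions of the 8 tested genes held under all 11 alternatives wherever they were tested, and 82 of 83 gene-level checks stayed on the same side of the threshold, the exception being Dhrs3 without placode replicate 1. Of the 83 checks, 8 were of Aldh1a1 and 10 of Aldh1a3, which had to differ, so those checks add nothing. All alternatives reused the same 4 samples. With a mean FPKM of at least 5, the number of lower members fell from 6 to 3 and that of lower other enzymes from 5 to 3, since fewer genes were tested. With no minimum, 7 transport and binding genes were higher, as more genes were tested. Leaving out each replicate gave 1 to 2 higher members, 3 to 5 lower other enzymes, 1 to 2 higher receptors and 2 to 4 lower receptors. Without SMG replicate 1 or SMG replicate 2, Aldh1a1 fell under the minimum and 5 members were lower.

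Same-numbered samples share only a number (correlation of deviations -0.035). With the replicate block, 2 members were higher and 6 lower, as without it, and Dgat1 (adjusted p = 0.0371) and Cyp1b1 (adjusted p = 0.0451) were called in addition.

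The summed levels moved by less than 1 SD when samples were rescaled. Counted units were few for Cyp26c1. Where a replicate was left out, its group had 1 sample, which is assumed to vary like the other group, so a call lost there, as for Dhrs3, does not by itself show a smaller difference.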
